A study of Mus musculus with 6 samples.

Results

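The 35 genes described here are markers of neuroectoderm, the embryonic tissue that forms the nervous system, and of the neurons it gives rise to. They were taken by symbol from the deposited table of 31265 genes, and all 35 were found in it. They comprise 15 transcription factors of the neural plate and of neural progenitors, 4 progenitor genes for cytoskeleton, adhesion and lipid binding, 5 proneural or neurogenic transcription factors, and 11 neuronal cytoskeleton and RNA-binding genes. The samples are mouse E14Tg2a embryonic stem cells, labelled WT, which in both groups carried a nuclear Grx1-roGFP2 sensor whose excitation ratio reports the glutathione redox state. Cells were differentiated as hanging-drop embryoid bodies in serum medium without 2i or LIF, and at day 5 live cells were sorted. The oxidized group (D5_ox) holds the 10% most oxidized cells and the reduced group (D5_red) the 10% most reduced cells of each of 3 populations, lettered A to C, which gives 3 libraries per group. No label says that the populations were separate cultures, so p-values measure the spread between them and may be technical.

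Neuroectoderm forms from the epiblast where BMP and Nodal signals are low. Its cells first express SoxB1 factors such as Sox1 and Sox3, then regional factors of the Pax, Zic and Irx families, together with the filament nestin (Nes) and N-cadherin (Cdh2). Proneural factors later drive the exit from the cell cycle, and tubulins, stathmins, neurofilaments and Elavl proteins build the neuron. Many of these genes also act elsewhere: Cdh2 and Irx3 in heart and mesoderm, Pax3 in somites, and stathmin and internexin genes outside mature neurons.

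Levels are FPKM, a fragment density corrected for transcript length and for the size of the library, so genes can be compared with each other. The file gives no counts. Steps among its low values put the depth at about 1.2e+07 to 1.82e+07 fragments in a library, lowest in population C. The oxidized libraries A and B stand apart from the other 4 libraries in 2 abundant transcripts. A ribosomal RNA locus (CT010467) summed to 3595 and 4715 FPKM in them against 83055 FPKM or more in the others, and mt-Co3 was at 2710 and 1525 FPKM against at most 199 FPKM. Values without these libraries are therefore given where a result rests on them. In sorted bulk samples, fewer cells of a type and less RNA per cell cannot be told apart.

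Levels of these genes were low. Only 13 of the 35 genes reached a mean of 1 FPKM over the 6 libraries and were tested: Sox3, Zic5, Irx3, Irx5, Nes, Cdh2, Ncam1, Tubb3, Stmn2, Stmn3, Gap43, Ina and Nefl. Irx5 (1.58 FPKM) and Stmn3 (1.67 FPKM) lay just inside this limit, and Irx2 (0.910 FPKM) and Fabp7 (0.781 FPKM) just outside it. The defining early markers Sox1 and Pax6 had means of 0.416 and 0.225 FPKM, and the neuronal markers Dcx and Map2 of 0.00499 and 0.0815 FPKM. Tested progenitor genes mostly had higher means in oxidized cells, whereas the neuronal filament genes Ina and Nefl had lower ones, and 0 of the 13 passed the test. For comparison, 97 of all 12191 tested genes were called at an adjusted p under 0.05 (0.796%), 63 higher (0.517%) and 34 lower (0.279%) in oxidized cells, by limma on log2(FPKM + 1) with Benjamini-Hochberg adjustment. With median-ratio scaling that split was 58 higher and 50 lower, and blocking on population left 2 in each direction. Without oxidized C it was 884 higher and 301 lower. The lowest adjusted p among the 13 was 0.0545 (Cdh2). At an unadjusted p under 0.05 there were 6 of 13, where the share over all tested genes was 19.4%. Of these 5 were higher and 1 lower, against 13.5% and 5.93% of all tested genes. The difference was positive for 8 of 13, against 59.3% of all. Irx5, counted in the 5 and in the 8, reached 1 FPKM only through its oxidized libraries (reduced mean 0.407 FPKM). The limit thus favoured higher genes in both counts, and no conclusion is drawn from them. The authors' deposited table has q under 0.05 for 6 of the 35 (Sox21, Pax3, Irx3, Irx5, Nes and Cdh2), against 2.76% of all its genes. The median log2 difference, oxidized minus reduced, was 0.28 over the 13 and 0.08 over all tested genes. With oxidized C as the only oxidized library these medians were -0.17 and 0.01. In that setting the lone library is assumed to vary like the reduced ones.

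**Figure D1:**
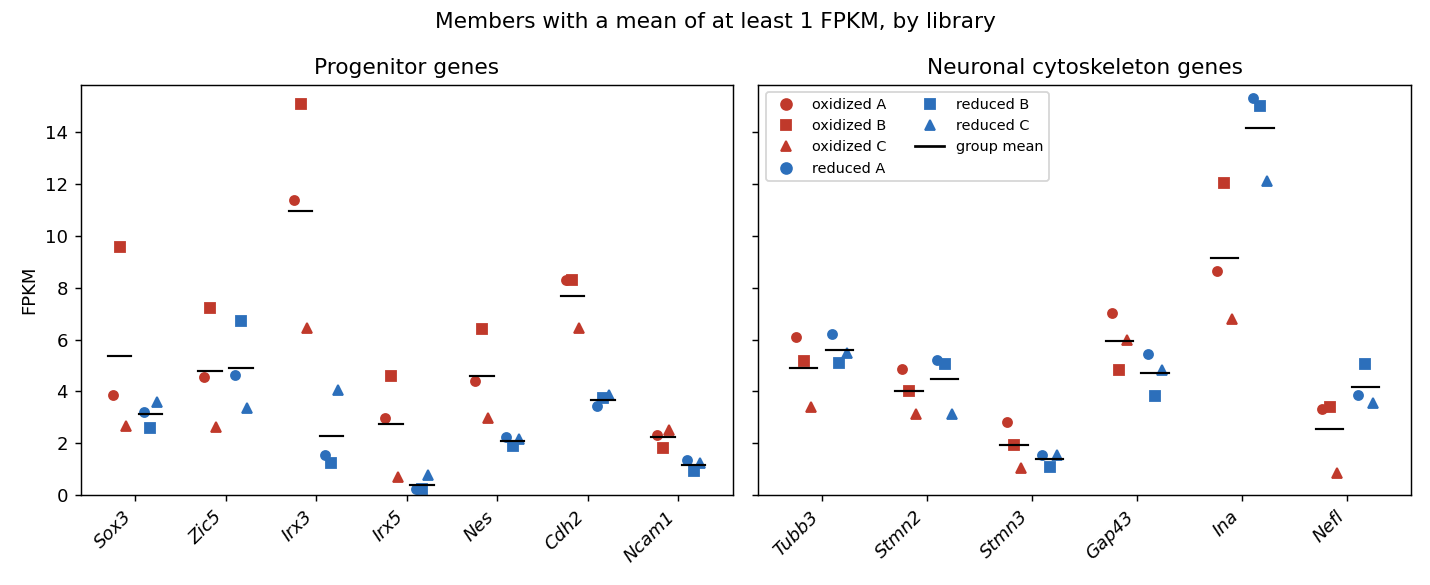
FPKM (y axis) of the 13 tested genes in each of the 6 libraries. Red marks oxidized and blue reduced libraries, the marker shape gives the population and the black line is the group mean. Oxidized and reduced points do not overlap for Irx3, Nes, Cdh2 and Ncam1 (oxidized above) and for Ina and Nefl (oxidized below).

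Upstream sequence is shown for 3 of the genes whose groups did not overlap, Sox21 and Nes with the oxidized libraries above and Ina with them below. The windows come from RefSeq (GRCm38.p6) and end just before the first annotated start of the gene. They lie at chr14:118237031-118237280 (minus strand), chr3:87970843-87971077 (plus strand) and chr19:47014431-47014680 (plus strand). Capitals mark GC boxes.
Sox21: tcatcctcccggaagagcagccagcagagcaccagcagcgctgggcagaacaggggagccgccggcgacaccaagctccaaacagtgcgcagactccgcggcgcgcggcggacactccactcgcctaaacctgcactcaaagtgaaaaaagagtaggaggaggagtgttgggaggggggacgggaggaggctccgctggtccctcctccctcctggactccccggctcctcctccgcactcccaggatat
Nes: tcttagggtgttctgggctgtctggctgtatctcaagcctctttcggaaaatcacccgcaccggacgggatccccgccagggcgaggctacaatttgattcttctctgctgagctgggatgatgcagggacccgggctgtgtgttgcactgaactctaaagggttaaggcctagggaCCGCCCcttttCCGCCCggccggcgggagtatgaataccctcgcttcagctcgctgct
Ina: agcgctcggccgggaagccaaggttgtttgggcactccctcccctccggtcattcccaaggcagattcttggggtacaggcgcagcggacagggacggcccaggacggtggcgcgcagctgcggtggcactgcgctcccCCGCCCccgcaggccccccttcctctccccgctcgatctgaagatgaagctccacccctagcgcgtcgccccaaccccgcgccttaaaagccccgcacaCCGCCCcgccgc
All 3 windows were rich in G and C, at 65.2% for Sox21, 58.7% for Nes and 70.8% for Ina, and held 17, 14 and 25 CpG dinucleotides.

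RefSeq windows of 250 bases before the start were found for 23 of the 35 genes, with 29 windows in all. These were not cut at the annotated gene start, so some reach into the gene. The Sox1 window (chr8:12395269-12395518) does, as the annotated gene starts at 12395295. Windows of the same gene can overlap, as for Elavl4, and each was counted. All 29 were searched on both strands for 6 motifs, each counted by itself where motifs overlap. The GC box (GGGCGG) was in 51.7% of the windows and in 32.7% of all 32851 promoter windows of the same length. The CCAAT box (CCAAT) was in 51.7% against 33.8%, and the TATA box (TATAAA) in 13.8% against 12.4%. The core of the antioxidant response element (TGACNNNGC), which NRF2 binds, was in 6.9% against 10.2%, in the windows of Sox1 and Pax6. The palindrome bound by Iroquois factors (ACANNTGT) was in 6.9% against 6.31%, in those of Pax6 and Nhlh1. The left part of the RE1 element (TTCAGCACC), the site of the neuronal repressor REST, was in 0 of 29 windows against 0.301%. A match describes letters in this window and is not a measured site. The median G and C content was 58.4% in these windows and 52.4% in all.

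Among the 4 transcription factors tested, Irx3 and Irx5 had the largest log2 differences, although the groups overlapped for Irx5. Iroquois homeodomain factors pattern the neural plate and also the heart, and Irx3 and Irx5 are neighbours in 1 of the family's clusters. Irx3 (chr8:91798525-91802067, minus strand, GRCm38) was at 11.4, 15.1 and 6.45 FPKM in the oxidized libraries A, B, C and at 1.53, 1.22 and 4.04 FPKM in reduced A, B and C. The groups did not overlap, but population C had the lowest oxidized and the highest reduced value. Group means were 10.98 ± 4.34 against 2.27 ± 1.54 FPKM (SD, n = 3 each), and the log2 difference was 1.90 (SE 0.36, limma adjusted p = 0.0599). It was higher in oxidized cells in 3 of 3 populations, by 2.29, 2.86 and 0.56 on the log2 scale in A, B and C.

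Irx5 (chr8:92357625-92376286, plus strand) was at 2.98, 4.60 and 0.699 FPKM in the oxidized libraries A, B, C and at 0.225, 0.225 and 0.772 FPKM in the reduced libraries. It was high in oxidized A and B, while in population C both values lay close together and the order was turned. The log2 difference was 1.28 (SE 0.40, limma adjusted p = 0.147), and it was 0.29 without oxidized A and B. Irx5 entered the test through its oxidized libraries, as its reduced mean was 0.407 FPKM. Without oxidized C, a setting in which 9.72% of all tested genes were called, Irx3 had a log2 difference of 2.21 (adjusted p = 0.0050) and Irx5 of 1.77 (adjusted p = 0.00378). Without reduced C, where 0.525% of all tested genes were called, the adjusted p of Irx3 was 0.0326. Over all alternatives the adjusted p ranged from 0.0050 to 0.272 for Irx3 and from 0.00378 to 0.704 for Irx5. The authors' deposited table gives a q of 3.75e-05 for Irx3 and of 0.00152 for Irx5.

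The members of the other Iroquois cluster, on chromosome 13, were lower and ordered differently. Irx2 was at 1.61, 1.21 and 0.702 FPKM in the oxidized libraries A, B, C and at 0.622, 0.481 and 0.829 FPKM in the reduced libraries. Irx1 was at 0.333, 0.203 and 0.933 FPKM against 0.285, 0.123 and 0.424 FPKM. Irx1 was thus highest in oxidized C, the oxidized library with the lowest Irx2, Irx3 and Irx5, and both Irx1 and Irx2 overlapped between groups.

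Among the genes that give progenitors their shape and contacts, Cdh2, Nes and Ncam1 were each above the reduced range in all 3 oxidized libraries. Cdh2 (chr18:16588877-16809246, minus strand), the N-cadherin that replaces E-cadherin when the neural plate forms and in mesoderm, was at 8.29, 8.29 and 6.44 FPKM in the oxidized libraries A, B, C. In reduced A, B and C it was at 3.43, 3.75 and 3.88 FPKM. The reduced values lie within a narrow band and every oxidized value is above it. The means were 7.67 ± 1.07 and 3.69 ± 0.234 FPKM (SD, n = 3 each), and the log2 difference was 0.88 (SE 0.16, limma adjusted p = 0.0545). It was 0.67 without oxidized A and B and 0.99 without oxidized C (adjusted p = 0.00841), and over all alternatives the adjusted p ranged from 0.00841 to 0.251. The authors' deposited table gives Cdh2 a q of 0.000271.

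Nes (chr3:87971078-87980451, plus strand), the intermediate filament nestin of dividing progenitors, was at 4.39, 6.43 and 2.96 FPKM in the oxidized libraries A, B, C. In the reduced libraries it was at 2.23, 1.90 and 2.16 FPKM. Oxidized C was closest to the reduced range but above it. The log2 difference of Nes was 0.81 (SE 0.23, limma adjusted p = 0.131), 0.36 without oxidized A and B, and 1.03 without oxidized C (adjusted p = 0.0141). Its adjusted p ranged from 0.0141 to 0.522 over the alternatives. The authors' deposited table gives a q of 0.0157.

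Ncam1 (chr9:49502136-49798925, minus strand), a cell adhesion molecule of the immunoglobulin family, was at 2.34, 1.82 and 2.52 FPKM in the oxidized libraries A, B, C and at 1.34, 0.918 and 1.25 FPKM in the reduced libraries. Unlike Nes and Cdh2 it was highest in oxidized C. Its log2 difference was 0.57 (SE 0.17, limma adjusted p = 0.144) and 0.70 without oxidized A and B. The populations gave similar differences, 0.51, 0.56 and 0.65 in A, B and C. Fabp7, the fatty acid binding protein of radial glia, ranged from 0.655 to 1.34 FPKM in oxidized and from 0.219 to 1.28 FPKM in reduced libraries. Its groups overlapped in part.

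Over the tested genes, 4 of 13 had all oxidized libraries above all reduced ones, where the share among all tested genes was 16.2%, and 2 of 13 had them all below, where it was 8.81%.

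**Figure D2:**
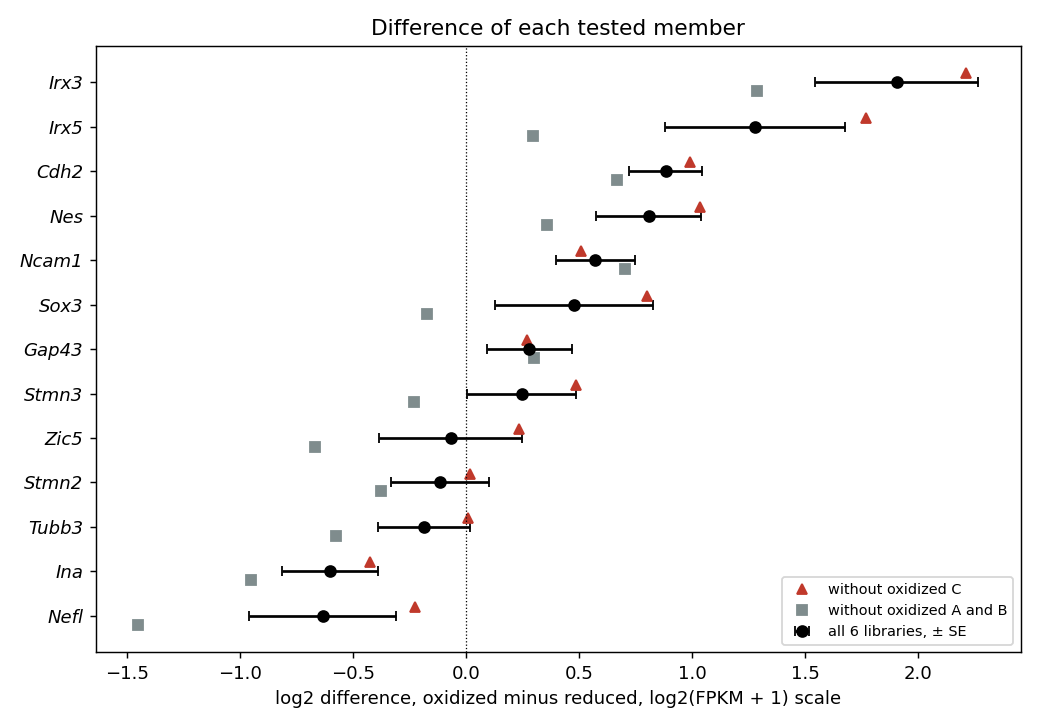
Difference between the oxidized and the reduced mean of log2(FPKM + 1) (x axis) for the 13 tested genes, with black points and bars for the fit of all 6 libraries ± SE. Red triangles leave out oxidized C and grey squares leave out oxidized A and B; Irx3 is at 1.90, 2.21 and 1.29, and Nefl at -0.64, -0.23 and -1.45.

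The other tested factors, Sox3 and Zic5, overlapped between groups. Sox3, a SoxB1 factor of the early neural plate (chrX:60891366-60893430, minus strand) was at 3.84, 9.58 and 2.65 FPKM in the oxidized libraries A, B, C and at 3.21, 2.61 and 3.58 FPKM in the reduced libraries. Oxidized B alone was far above the others, and oxidized C lay inside the reduced range. The log2 difference of Sox3 was 0.48 (SE 0.35, limma adjusted p = 0.473), and it was -0.17 without oxidized A and B. Zic5, a zinc finger factor of the dorsal neural tube, was at 4.55, 7.22 and 2.61 FPKM in the oxidized libraries A, B, C and at 4.62, 6.72 and 3.38 FPKM in reduced A, B and C. Its values followed the population rather than the sort, with B highest and C lowest in both groups (log2 difference -0.07, SE 0.32, adjusted p = 0.920).

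Below 1 FPKM, 11 of 22 genes reached 0.5 FPKM in a library and 11 did not. Sox1, the earliest specific neuroectoderm factor, was at 0.538, 1.13 and 0.288 FPKM in the oxidized libraries A, B, C and at 0.116, 0.312 and 0.114 FPKM in the reduced libraries. These values stand for about 41.9, 84.2 and 16.7 fragments against 10.2, 26.0 and 7.0, by the estimated depth. Sox1 was higher in the oxidized library of each population, but oxidized C lay below reduced B, so the groups overlapped.

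Sox21, a SoxB2 factor that counteracts SoxB1 activity as progenitors advance, was at 0.495, 1.04 and 0.567 FPKM in the oxidized libraries A, B, C. In reduced A, B and C it was at 0.0441, 0.0653 and 0.157 FPKM. These correspond to about 30.3, 61.3 and 25.8 fragments against 3.0, 4.3 and 7.6, so the groups were apart but rest on few fragments. The authors' deposited table gives Sox21 a fold of 7.89 and a q of 0.000660. Without the filter on low values, a setting in which 1 of 28179 genes was called (0.00355%), limma gave a log2 difference of 0.63 and an adjusted p of 0.243. A non-coding gene on the opposite strand, Gm4675, covers 18.8% of its exon bases and had a mean of 0.182 against 0.0432 FPKM, and no label says whether counting used strand.

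Pax3, which marks the dorsal neural tube and the somites, was at 0.955, 1.17 and 0.707 FPKM in the oxidized libraries A, B, C and at 0.191, 0.384 and 0.101 FPKM in the reduced libraries. The groups did not overlap, and each population was higher in oxidized cells. The authors' deposited table gives a q of 0.00585, while limma without the filter gave a log2 difference of 0.66 (adjusted p = 0.246). Pax6, the factor of the forebrain and dorsal progenitors, was at 0.272, 0.449 and 0.0815 FPKM against 0.185, 0.187 and 0.175 FPKM. Oxidized A and B were above the reduced values and oxidized C below them.

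The forebrain factors Six3 and Lhx5 were far higher in 1 library than in the others, and both were higher in the oxidized library of each population. Six3, of the anterior neural plate and eye field, was at 0.657 FPKM in oxidized B and at 0.180 FPKM or less in every other library. Lhx5, of the forebrain, was at 0.909 FPKM in oxidized B and at 0.214 FPKM or less elsewhere, the latter in reduced B. Hes3, a Hes repressor of early neural progenitors, was at 0.712 FPKM in oxidized B, at 0.290 FPKM in oxidized A and listed at 0 in oxidized C. In reduced A, B and C it was at 0.0855, 0.0601 and 0.143 FPKM. Zic1 and Pou3f2 had oxidized values above all reduced ones, at 0.132 to 0.260 against 0.0137 to 0.104 FPKM for Zic1. Pou3f2, about 5.0 to 10.1 fragments in oxidized libraries, was at 0.0105 FPKM in reduced B and listed at 0 in reduced A and C.

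**Figure D3:**
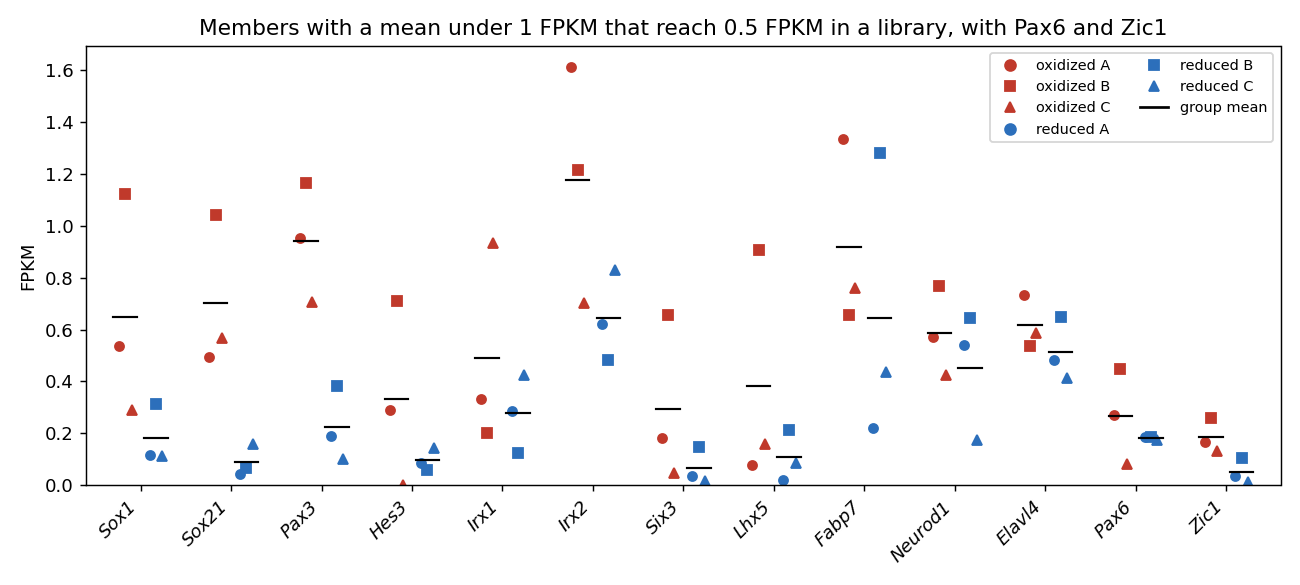
FPKM (y axis) by library of the 11 genes with a mean under 1 FPKM that reach 0.5 FPKM in a library, and of Pax6 and Zic1. Colours and shapes are as in the plot of the tested genes; the oxidized B squares are the highest points for Sox1, Sox21, Pax3, Hes3, Six3, Lhx5, Neurod1, Pax6 and Zic1.

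In all, 4 of the 22 genes under 1 FPKM (Sox21, Pax3, Zic1 and Pou3f2) had oxidized values above all reduced ones and 0 had them below. Among all genes under 1 FPKM and above 0 in some library these shares were 5.8% and 4.68%.

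Most of these transcription factors were highest in the oxidized library of population B. Of the 15 neural plate and progenitor factors, 12 were highest in oxidized B, 2 in oxidized A (Irx2 and Pou3f2) and 1 in oxidized C (Irx1). Over all tested genes oxidized B was the highest library for 29.2%. The tested genes have a mean of at least 1 FPKM, whereas 11 of the 15 factors lay under it. No such share was computed for genes under 1 FPKM. Among the reduced libraries alone, reduced B was the highest for 8 of the 15 and reduced C for 7, where the shares over all tested genes were 35.6% and 35.4%. Summed over the 15, the level was 27.8, 44.3 and 16.1 FPKM in the oxidized libraries A, B, C and 11.2, 12.9 and 13.8 FPKM in the reduced libraries. Oxidized C was thus only slightly above the reduced range, and Irx3 made up 15.1 of the 44.3 FPKM in oxidized B.

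Proneural factors were barely detected in either group. Neurod1, a basic helix-loop-helix factor of differentiating neurons, was the only one of 5 to reach 0.5 FPKM, at 0.574, 0.768 and 0.425 FPKM in the oxidized libraries A, B, C and 0.539, 0.644 and 0.176 FPKM in the reduced libraries. Its groups overlapped. Neurog2, which starts neurogenesis in cortex and spinal cord, was at or below 0.223 FPKM, about 8.0 fragments. Neurod4 was at about 4.0 and 11.1 fragments in oxidized A and B and listed at 0 in the other 4 libraries. Olig2, of motor neuron and oligodendrocyte progenitors, had about 5.9 fragments in oxidized B and was listed at 0 elsewhere, and Nhlh1 was listed at 0 in all 6 libraries.

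The neuronal cytoskeleton genes showed a different order: the level of the most abundant ones was similar in both groups or lower in oxidized cells. Ina (chr19:47014698-47025327, plus strand), the neurofilament-like protein alpha-internexin, had the highest mean of all 35 genes. It was at 8.64, 12.1 and 6.81 FPKM in the oxidized libraries A, B, C and at 15.3, 15.0 and 12.1 FPKM in the reduced libraries. Oxidized B (12.06 FPKM) came close to reduced C (12.13 FPKM), yet all oxidized values were lower. The means were 9.17 ± 2.67 and 14.2 ± 1.77 FPKM (SD, n = 3 each), with a log2 difference of -0.60 (SE 0.21, limma adjusted p = 0.182) and lower values in 3 of 3 populations. Nt5c2 on the opposite strand, at 4.52 against 4.03 FPKM, shares 14.1% of the exon bases of Ina.

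Nefl (chr14:68083863-68089095, plus strand), the light neurofilament chain, was at 3.34, 3.41 and 0.866 FPKM in the oxidized libraries A, B, C and at 3.85, 5.06 and 3.54 FPKM in the reduced libraries. Oxidized A and B lay just under the reduced range and oxidized C far under it. The log2 difference was -0.64 (SE 0.33, limma adjusted p = 0.317), -0.23 without oxidized C and -1.45 without oxidized A and B. Its neighbour Nefm, the medium chain, covers 32.8% of the exon bases of Nefl from the opposite strand. Nefm was at 0.0880 to 0.427 FPKM in oxidized and 0.0138 to 0.203 FPKM in reduced libraries.

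Tubb3, the beta-tubulin of neurons, was at 6.11, 5.17 and 3.41 FPKM in the oxidized libraries A, B, C and at 6.21, 5.09 and 5.50 FPKM in the reduced libraries. Populations A and B gave nearly equal values in both sorts and only oxidized C was low (log2 difference -0.19, SE 0.20, limma adjusted p = 0.639). The growth-associated genes Stmn2 and Gap43, both linked to growth cones, overlapped between groups, with log2 differences of -0.12 (SE 0.22) and 0.28 (SE 0.19). Gap43 was at 7.04, 4.83 and 5.98 FPKM in oxidized and 5.46, 3.84 and 4.85 FPKM in reduced A, B and C, so each population was slightly higher in oxidized cells. Stmn2 ranged from 3.14 to 4.89 and from 3.13 to 5.23 FPKM. Stmn3 was at 2.81, 1.95 and 1.04 FPKM against 1.56, 1.10 and 1.56 FPKM (log2 difference 0.25, SE 0.24), higher in oxidized A and B and lower in oxidized C.

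The RNA-binding gene Elavl4 was at 0.539 to 0.734 FPKM in oxidized and 0.413 to 0.649 FPKM in reduced libraries. Elavl3, Map2 and Dcx stayed at or below 0.278, 0.156 and 0.0232 FPKM. The 11 neuronal genes summed to 33.9, 32.8 and 22.1 FPKM in the oxidized libraries A, B, C and to 38.5, 36.3 and 31.4 FPKM in the reduced libraries, so that oxidized A lay above reduced C. Without Ina the sums were 25.2, 20.7 and 15.3 against 23.1, 21.3 and 19.3 FPKM. The 4 progenitor genes Nes, Cdh2, Ncam1 and Fabp7 summed to 16.4, 17.2 and 12.7 against 7.22, 7.85 and 7.72 FPKM.

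The order of levels also differed between groups. In oxidized A and B, Irx3 was the most abundant of the 35 genes, ahead of Ina. In oxidized C, Ina (6.81 FPKM), Irx3 (6.45 FPKM) and Cdh2 (6.44 FPKM) were nearly level, and in the reduced libraries Ina (12.1 to 15.3 FPKM) was far above the next gene (5.50 to 6.72 FPKM).

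Other neural genes were read beside these, from lists chosen for their known roles but with earlier results of these data known. Of 41 further progenitor genes, 18 were tested, 2 were called higher and 0 lower, and their median log2 difference was 0.37. At an unadjusted p under 0.05 by limma 33.3% of the 18 were higher and 0 lower, against 13.5% and 5.93% of all tested genes. Ptn, the secreted growth factor pleiotrophin made by radial glia and by mesenchyme, rose in oxidized cells by 1.61 on the log2 scale, with means of 11.5 ± 1.05 against 3.13 ± 0.892 FPKM (SD, n = 3 each, SE 0.19, limma adjusted p = 0.0167). Meis1, a homeodomain cofactor of Hox proteins, rose by 1.01 on the log2 scale, with 2.22 ± 0.214 against 0.604 ± 0.155 FPKM (SE 0.16, adjusted p = 0.0382). With the population as a block these adjusted p-values were 0.0540 for Ptn and 0.0873 for Meis1. With oxidized C as the only oxidized library they were 0.0941 and 0.126, with log2 differences of 1.73 and 1.09 and a spread estimated from the reduced libraries. Meis2, a close relative of Meis1, was at 2.70 ± 0.543 against 0.920 ± 0.151 FPKM (limma adjusted p = 0.0599). Ptn, Meis1 and Meis2 are also expressed outside the nervous system. Meis1 reached the filter of 1 FPKM only through its oxidized libraries, as did Meis2, Dbx1, Hesx1 and, among the neuronal genes below, Tubb4a. Reduced means were 0.0899 FPKM for Dbx1 and 0.644 FPKM for Hesx1. Meis1, Meis2, Dbx1 and Hesx1 are among the 6 genes behind the 33.3%. The filter thus favoured higher genes in that share and in the Meis1 call, and no conclusion is drawn from either.

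Of 42 further neurogenic and neuronal genes, 40 were in the table and 14 were tested, with 0 called and a median of 0.20. At an unadjusted p under 0.05 by limma 3 were higher, 21.4% of those tested against 13.5% of all tested genes. These were the endosomal protein gene Nsg1 (2.68 ± 0.436 against 1.17 ± 0.339 FPKM), Dpysl3, which acts in growth cones (3.19 ± 0.352 against 1.80 ± 0.353 FPKM), and the tubulin gene Tubb4a (2.03 ± 1.40 against 0.562 ± 0.0813 FPKM). Their limma adjusted p-values were 0.103, 0.135 and 0.169. Genes of the REST repressor complex, which silences neuronal genes outside neurons, were all 12 tested, with 0 called and a median of 0.14. At an unadjusted p under 0.05 by limma 3 of these were higher (25%). The difference was positive for 8 and negative for 4, among them Rest itself (25.6 against 27.8 FPKM). The histone methyltransferase gene Ehmt2, the remodeller gene Smarca4 and the corepressor gene Rcor2 had the smallest p, with log2 differences of 0.54, 0.45 and 0.62 (adjusted p = 0.198, 0.201 and 0.220).

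Marker lists of other cell types differed between the sorts as well, and their part in the values above was not tested. These lists, too, were chosen with earlier results of these data known. Counts at an unadjusted p under 0.05 by limma stand against 13.5% higher and 5.93% lower among all tested genes. Genes called higher stand against 0.517%. Of 14 mesenchyme and fibroblast genes 8 were tested and 2 were called higher, Fbln1 and Col3a1 (median log2 difference 0.80). At an unadjusted p under 0.05 by limma 6 of the 8 were higher (75.0%). The list summed to 141 to 204 FPKM in oxidized and 70.4 to 102 FPKM in reduced libraries. Of 15 primitive and visceral endoderm genes 10 were tested and 2 were called higher, Col4a2 and Sparc (median 0.93), with sums of 149 to 200.4 against 66.7 to 89.4 FPKM. In the endoderm list 8 of the 10 were higher at an unadjusted p under 0.05 by limma (80.0%). Calls of Fbln1, Col3a1, Col4a2 and Sparc were lost with the population as a block, at limma adjusted p-values of 0.0875, 0.0613, 0.0665 and 0.0902. Among the higher genes counted, Col1a2, Ttr, Foxa2 and, in the paraxial list below, Foxc1 reached the filter of 1 FPKM only through their oxidized libraries. Of 14 cardiac and lateral mesoderm genes 10 were tested and 0 called (median 0.79), led by Tnni1 and Hand1. At an unadjusted p under 0.05 by limma 6 of the 10 were higher (60.0%). The difference was positive for 8 of the 10 and negative for Myl7 (2.63 against 3.88 FPKM) and Tbx20 (2.19 against 2.72 FPKM). The cardiac list summed to 190 to 238 FPKM in oxidized and 88.3 to 139 FPKM in reduced libraries.

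Neural crest genes, which share Pax3 and Zic1 territory at the border of the neural plate, had 6 of 12 tested and 0 called (3 higher at an unadjusted p under 0.05 by limma, 50%, median 0.47). Their sums were 144 to 174 against 83.3 to 139 FPKM. Sox9, a factor of neural crest and cartilage, and Snai2, a repressor of E-cadherin, led this list at limma adjusted p-values of 0.0780 and 0.0891. The defining crest gene Sox10 was at or below 0.364 FPKM, and Pax7 and Tfap2b were listed at 0 in 4 libraries each. Crest genes were mixed. Of the 6 tested, 5 had a positive difference and 1, Tfap2c, a negative one (8.19 against 11.7 FPKM). Under the filter, Foxd3 (0.452 against 0.641 FPKM), Tfap2a (0.392 against 0.675 FPKM) and Ngfr (0.441 against 0.874 FPKM) also had lower oxidized means. Paraxial mesoderm genes, whose somites express Pax3, had 7 of 14 tested and 0 called (1 higher, 14.3%, and 2 lower, 28.6%, at an unadjusted p under 0.05 by limma, median -0.39). They summed to 20.6 to 29.2 FPKM in oxidized and 31.3 to 36.0 FPKM in reduced libraries, and Ripply2 was listed at 0 in all 6. The list was mixed. Msgn1 and Mesp1, which had the smallest p, and Tcf15, the most abundant of the list (11.2 against 16.7 FPKM), had lower oxidized means. Other paraxial markers had higher oxidized means, among them Tbx6 (0.751 against 0.166 FPKM), Meox1 (0.728 against 0.274 FPKM), Foxc1 (1.76 against 0.780 FPKM) and Foxc2 (0.767 against 0.194 FPKM). Pluripotency genes had 10 of 11 tested and 0 called (6 lower at an unadjusted p under 0.05 by limma, 60.0%, median -0.65), led by Dppa4 and Tfcp2l1. The difference was negative for 8 of the 10 and positive for Nanog (34.9 against 23.2 FPKM) and Fgf5 (9.13 against 7.71 FPKM). Nanog was at 44.3, 49.0 and 11.5 FPKM in the oxidized libraries A, B, C. The list summed to 1975, 1736 and 817 FPKM in the oxidized libraries A, B, C against 2236 to 2439 FPKM. Dppa5a alone gave 1390, 1066 and 477 FPKM of these sums in oxidized A, B and C, and 1583 to 1702 FPKM in the reduced libraries. Oxidized C thus had the lowest pluripotency sum, and it was also lowest of the oxidized libraries in neural plate factors.

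**Figure D4:**
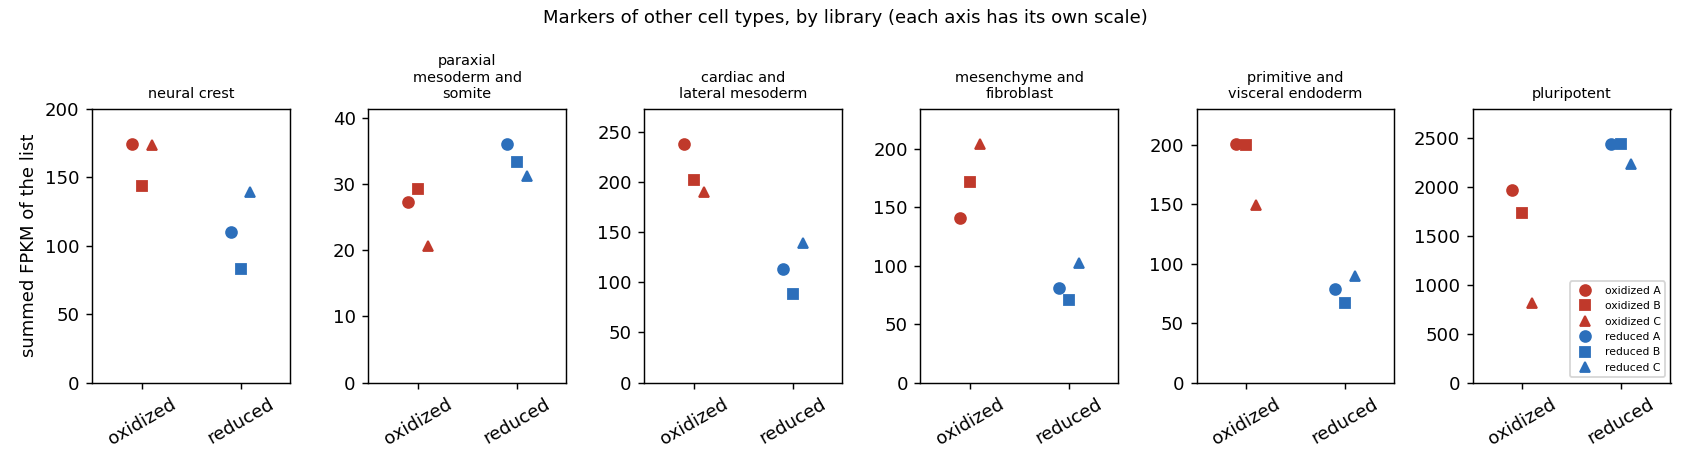
Summed FPKM (y axis, a separate scale in each panel, each from 0) of the markers of 6 other cell types in each library, oxidized in red and reduced in blue, with the marker shape for the population. Neural crest, mesenchyme, endoderm and cardiac sums are above the reduced range in all 3 oxidized libraries, and paraxial mesoderm and pluripotency sums below it. Single genes make up most of 3 sums: Dppa5a of the pluripotency, Sparc of the endoderm and Hand1 of the cardiac sum.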

How the data were processed

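RNA from 6 sorted populations was sequenced as stranded poly(A) libraries, paired-end, per the labels' protocols. Per the submitters' processing notes, the tools were HISAT2 and StringTie, with cutadapt, FastQC and edgeR, and the build mm10. For roles, versions and the use of strand in counting, no source used here gives an answer. The authors deposited FPKM per gene and library, and, per the file headers, a fold ratio, its log2, a p-value and a q-value per gene. The deposited fold equals the ratio of mean FPKM, within 0.1% for 100% of genes, with 1e-04 in place of a mean of 0. Column names carry the letters A, B and C, while sample titles carry replicate numbers, so columns were assigned to groups only.

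Genes whose mean over the libraries reached 1 FPKM were tested with limma 3.58.1 (R 4.3.3) on log2(FPKM + 1), with group alone, a mean-variance trend and Benjamini-Hochberg adjustment at 0.05. Fold changes on this scale understate changes of low genes. Only 30.4% to 37.8% of low values lay on whole-read steps (tolerance 2%), so reads were not recovered and no count test was run. Fragment numbers per gene are estimates from those steps and the annotated length. Every one of the 35 genes is accounted for. Those under the filter that reach 0.5 FPKM are given by library, by range or by a few values, and the others by range or a few values. From each neural list the called genes and the 3 with the smallest p are named, and from each list of another cell type the 2 with the smallest p. Sox10, Pax7, Tfap2b, Ripply2, Tcf15, Tbx6, Meox1, Foxc1 and Foxc2 were named after their values were seen. So were Tfap2c, Foxd3, Tfap2a, Ngfr, Nanog, Fgf5, Dppa5a, Dbx1, Hesx1, Col1a2, Ttr, Foxa2, Myl7, Tbx20 and Rest. Genes and lists were chosen with earlier results of these data known.

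Oxidized and reduced cells of 1 letter come from the same population, per the series' design text, so the letters pair the libraries. Deviations of same-letter libraries from their group means correlated at -0.06, 0.07 and 0.20 for A, B and C. Libraries of different letters correlated at -0.17 to 0.13, so the values for A and B lay inside that range and C above it. The population block, scaling, trend, filter, pseudocount and left-out libraries were varied. Gene positions are from GENCODE on GRCm38, and promoter windows from RefSeq.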

Additional observations from a re-analysis of the deposited data

How the results depend on the processing

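The 13 tested genes were refitted under 14 alternatives. The count called stayed at 0 except with 1 library left out, where it ranged from 0 to 4. It was 4 without oxidized C (Irx3, Irx5, Nes and Cdh2) and 1 without reduced C (Irx3). With the population as a replicate block it was 0, and the lowest adjusted p was 0.106 by limma, with 7 genes at an unadjusted p under 0.05. Over all genes, 63 were called higher and 34 lower. These counts were 2 and 2 with the block, 1 and 0 without a filter on low values, and 3 and 1 without oxidized A and B. With a mean of at least 5 FPKM 21 were called lower. With 1 library left out the counts ranged from 1 to 884 higher and from 2 to 301 lower, and each single library other than reduced C brought the higher count down to 1 or 2, or, for oxidized C, up to 884. The split was 54 and 51 with quantile normalization. The median log2 difference of the tested genes (0.28) was -0.17 without oxidized A and B, and 0.16 to 0.48 with 1 library left out. Groups did not overlap for 6 of 13, where the share of all tested genes was 25%. This count was 10 of 34 without the filter (16.8% of all) and 3 of 5 at 5 FPKM (24.2%). Without oxidized A and B it was 10 of 13 (62.6%, since 1 oxidized library is left). With 1 library left out it was 6 to 9 of 13. For those settings the share over all genes was not computed, so these counts cannot be read as a change. Of 174 refits of single genes, 163 kept their direction and side of the threshold, 5 came past it and 6 turned direction. The latter were Sox3 (-0.17) and Stmn3 (-0.23) without oxidized A and B, Zic5 without oxidized C (0.23) or reduced B (0.14), and Tubb3 (0.0088) and Stmn2 (0.015) without oxidized C. With 1 library left out, Zic5 ranged from -0.36 to 0.23, Tubb3 from -0.34 to 0.0088 and Stmn2 from -0.31 to 0.015. The cause was not tested. Levels under 1 FPKM rest on few fragments, and with 3 libraries per group small differences could not be resolved.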
